A study of Homo sapiens with 12 samples.

Results

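Of the 31585 distinct loci in the expression table of A375 melanoma cells, 1605 carry an assembly name in place of a gene symbol. They were chosen by that name alone, as the loci whose symbol field begins with CUFF, and are called assembled loci here. The other 29980 loci, whose field begins with a gene symbol, are called annotated loci. RNA of this human melanoma line was sequenced in 4 groups of 3 libraries, which differ in the retroviral vector the cells carry. Control cells carried the empty MSCV-IRES-Hygro vector. YAPS127A cells carried human YAP with the serine-to-alanine change S127A, YAPS127A,S94A cells carried YAP with S127A and S94A, and YAP2SA cells carried YAP with the changes S127A and S381A. All groups were stably transduced, selected with hygromycin and grown in medium with serum. The 3 libraries of a group are described as separate platings of 1 transduced line, in which case the spread between them is that of repeated cultures. One label of the YAP2SA libraries also lists S94A, but their titles do not, and they were taken as YAP2SA. The sources used here differ on the hours between plating and lysis.

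When Cufflinks assembles reads into a transcript that matches no gene of the supplied annotation, it names it CUFF, followed by a gene number and a transcript number. Such loci can be noncoding RNAs, pieces of introns, unannotated ends of known genes or transcripts of repeats, and most have no assigned function. YAP is a transcriptional coactivator that the LATS kinases hold back by phosphorylation, in part by keeping it in the cytoplasm. It reaches DNA mainly through the TEAD transcription factors, and the S94A change prevents that contact.

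Most assembled loci had 1 assembly name, 1516 of 1605, and the other 89 held up to 16. The label does not hold for all of them: 31 also list a gene symbol after the assembly name, and 1574 list none. In the other direction, 6 annotated loci list an assembly name after their symbol. Only 1 assembly gene number was held by several assembled loci, so nearly all stand for separate assembled genes.

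The values are FPKM, fragments scaled by transcript length and by the mapped fragments of the library, deposited as log2(FPKM + 1). Read counts and library depth are not known from them, and a locus at 0 is described only as listed at 0. YAP1 itself, the gene the vectors carry, stood at 34.1 and 33.0 FPKM in Control replicates 1 and 2 and at 129.7 to 187.3 in the 9 libraries of cells with a YAP vector. The library labelled Control replicate 3 stood at 171.8, within the range of the YAP vectors, so counts against Control are also given without it. Among the assembled loci, 5 were over 1 log2 unit above all the other 11 libraries there and 6 below, against 2 to 13 and 1 to 7 in the other libraries. This count cannot show whether the label is right, because a library of another group would resemble the libraries of that group. Of the melanocyte and melanoma markers, VIM was at 562.8 to 619.4 FPKM in YAP2SA and 720.1 to 791.9 in the other 9, and AXL at 183.3 to 193.3 against 36.2 to 95.6, while PMEL and MLANA stayed under 1 and TYR and DCT at or near 0. Lineage markers were apart in the YAP2SA libraries. SOX10, which specifies the melanocyte lineage, was at 4.53 to 7.25 FPKM there and at 188 to 286.8 in the other 9, and S100B was at 0.605 to 1.03 against 30 to 51.7. MITF, the master regulator of melanocytes, was higher there, at 30.1 to 41.0 FPKM against 5.01 to 14.6. The defining markers of blood (PTPRC) and endothelium (PECAM1, CDH5) and EPCAM of epithelium were at most 0.53 FPKM, but the keratins differed in YAP2SA. There KRT14 was at 0.362 to 0.551 FPKM against 6.16 to 10.9 in the other 9 libraries, and KRT5 at 1.37 to 1.67 against 0 to 0.376. The part of these shifts in the changes of assembled loci in YAP2SA was not tested.

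All 1605 assembled loci were above 0 in at least 1 library, and 1257 of them, 78.3%, in all 12. Among annotated loci, 16573 (55.3%) were above 0 in all 12 libraries and 8148 were listed at 0 throughout. An assembled locus enters the table only because reads were found there, so the shares are not measures of the same kind. In the YAP2SA libraries, 1488, 1506 and 1509 assembled loci were above 0. These were the lowest counts of the 12 libraries, the other 9 ranging from 1521 to 1568, without overlap. The YAP2SA libraries were also lowest for assembled loci at 1 FPKM or more, with 1109, 1100 and 1142 against 1158 to 1272. Counts per library are not given here for annotated loci, and depth is unknown. These counts therefore cannot show whether fewer loci of all kinds were above 0 in YAP2SA.

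**Figure D1:**
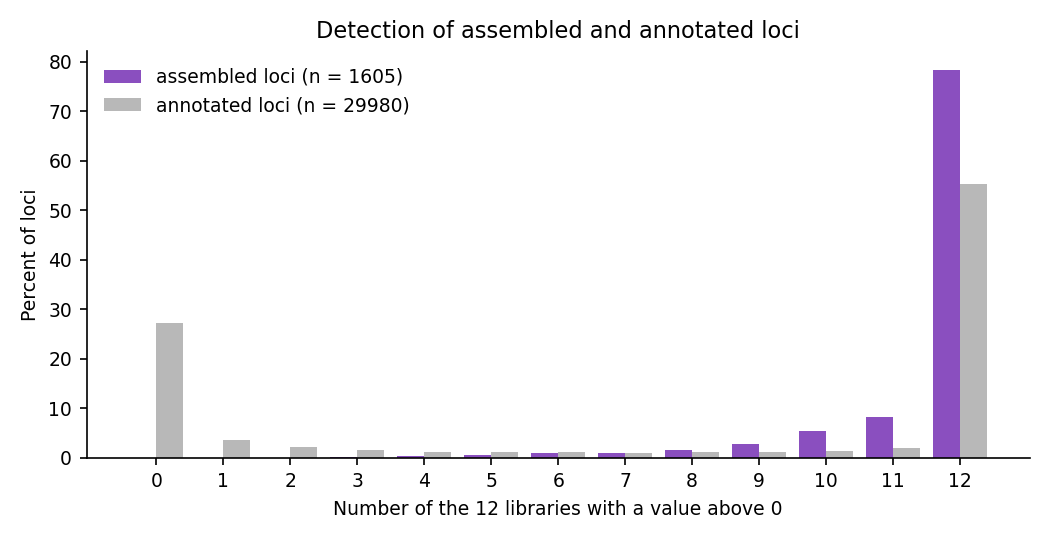
Percent of loci (vertical axis) by the number of the 12 libraries in which the locus was above 0 (horizontal axis), for the 1605 assembled loci (purple) and the 29980 annotated loci (grey). Bars at 12 libraries stand at 78.3% and 55.3%, and no assembled locus falls in the bar at 0.

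Levels of assembled loci were low, with a long upper tail. Their mean FPKM over the 12 libraries had a median of 1.80 and quartiles of 1.24 and 4.31, against a median of 11.2 for the annotated loci tested. At the other end, 42 assembled loci (2.62%) had a mean of at least 1000 FPKM, a share of 0.83% among annotated loci tested. Assembled loci made up 16.8% to 23.7% of a library's summed FPKM, and 3.6% to 4.26% once those 42 were left out. The YAPS127A,S94A libraries held the 3 highest shares, at 22.3%, 23.7% and 22.3%, against 16.8% to 21.1% in the other 9. Without the 42 loci their shares were 4.26%, 3.8% and 3.78%, within the 3.6% to 4.26% of the other 9. FPKM is divided by length, so such a share of FPKM is not a share of reads.

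The 2 assembled loci with the highest means were CUFF.4027.1 and CUFF.7558.1. CUFF.4027.1 was at 9782, 15858 and 8730 FPKM in Control, 15781, 6355 and 9547 in YAPS127A, 27420, 14847 and 15013 in YAPS127A,S94A, and 7863, 14806 and 3978 in YAP2SA. CUFF.7558.1 was at 18406, 5971 and 6571 FPKM in Control, 16202, 2991 and 8982 in YAPS127A, 17198, 7621 and 28250 in YAPS127A,S94A, and 8883, 13940 and 7485 in YAP2SA. For CUFF.7558.1 the libraries of every group overlapped. For CUFF.4027.1 every mutant overlapped Control, and the highest YAP2SA library lay just below the lowest YAPS127A,S94A library. Replicates of 1 group differed several-fold. Neither passed the test in any comparison, and against Control the log2 fold change of CUFF.4027.1 in YAP2SA was -0.52 (SE 0.49, limma with Benjamini-Hochberg adjusted p = 0.432).

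Replicates of assembled loci spread more widely than those of annotated loci. The median standard deviation within groups was 0.37 on the log2(FPKM + 1) scale for the 1554 assembled loci tested and 0.121 for the 13501 annotated loci tested. The difference grew with level. Among assembled loci with a mean under 1 FPKM the median standard deviation was 0.301, and it was 0.349, 0.404, 0.483 and 0.564 in the classes of 1 to 3, 3 to 10, 10 to 100 and 100 FPKM or more. Among annotated loci it ran the other way, from 0.152 under 1 FPKM to 0.0916 at 100 or more. Across the assembled loci tested, log2 values of 2 libraries of 1 group correlated with r = 0.919 to 0.957, and those of a Control and a YAP2SA library with r = 0.871 to 0.892. For annotated loci the ranges were 0.962 to 0.977 and 0.886 to 0.902. These correlations are across loci, which are not independent.

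A locus was tested where it reached 1 FPKM in at least 3 libraries, which 1554 assembled loci (96.8%) and 13501 annotated loci (45.0%) did. The remaining 51 assembled loci have no test. Of the 1554, 36 reached 1 FPKM only in the 3 libraries of 1 group, 35 of them in YAP2SA, and had to differ there. All 12 libraries entered 1 limma fit on the deposited values. A locus was called at a Benjamini-Hochberg adjusted p under 0.05 over all 15055 loci with group means in FPKM that differed more than 2-fold. Log2 fold changes are differences of log2(FPKM + 1), so for low loci they are smaller than the true change.

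The first comparison asked what YAP2SA, the form with the changes S127A and S381A, altered against the empty vector. With both thresholds applied and all levels pooled, assembled loci were called more often than annotated ones and mostly lower. In YAP2SA cells 143 rose and 238 fell. On adjusted p alone annotated loci were called more often, and the contrast differed between levels, both as given below. The 35 loci that reached 1 FPKM only in YAP2SA passed the filter through that group and were not taken out. The number that rose and the share called thus depend in part on the filter, and no count without those loci was made. They also enter the rises in YAP2SA that are given below. Of all loci tested 7.59% rose and 7.86% fell. Together the assembled calls were 24.5% of the assembled loci tested, where 15.5% of all loci tested and 14.4% of annotated loci were called. Annotated calls were nearly even, with 1000 loci higher and 946 lower, so that 62.5% of called assembled loci and 48.6% of called annotated loci were lower. The median log2 fold change was -0.09 over assembled loci and 0.02 over annotated loci. In 369 of the called assembled loci the 3 YAP2SA and the 3 Control libraries did not overlap. Such a gap was found in 36.2% of all assembled loci tested and in 52.8% of all loci tested. Control was listed at 0 in all 3 libraries for 25 of the loci that rose, and YAP2SA for 26 of those that fell. Without the library labelled Control replicate 3, 136 rose and 201 fell. Without YAP2SA replicate 1, 2 or 3 the number that rose was 102, 91 or 93. The filter then left 1511, 1511 or 1508 assembled loci to test.

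The ratio between groups and the adjusted p counted differently for the 2 kinds of loci. A ratio of group means over 2 in either direction was found for 35.3% of assembled loci and 16% of annotated loci. An adjusted p under 0.05 alone was found for 448 assembled loci, 28.8%, where 42.3% of all loci and 43.9% of annotated loci tested passed. The median standard error of the log2 fold change was 0.274 for assembled and 0.099 for annotated loci.

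Because assembled loci are low, shares were also compared within classes of mean FPKM. In the class of 1 to 3 FPKM, which held 896 assembled loci, 7.25% of assembled loci rose and 16.7% fell, against 12.6% and 11.9% of annotated loci. Under 1 FPKM, 26.4% of 159 assembled loci rose and 27% fell, against 33.1% and 16.9% of annotated loci. A locus of that class had to be uneven between libraries to reach 1 FPKM in 3 of them. In both classes fewer assembled than annotated loci rose and more fell. From 3 to 10 FPKM, 10.4% rose and 12.4% fell, against 7.8% and 7.32%. At 100 FPKM or more, 4 of 115 assembled loci rose and 4 fell, 3.48% each, against 2.79% and 4.85%.

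**Figure D2:**
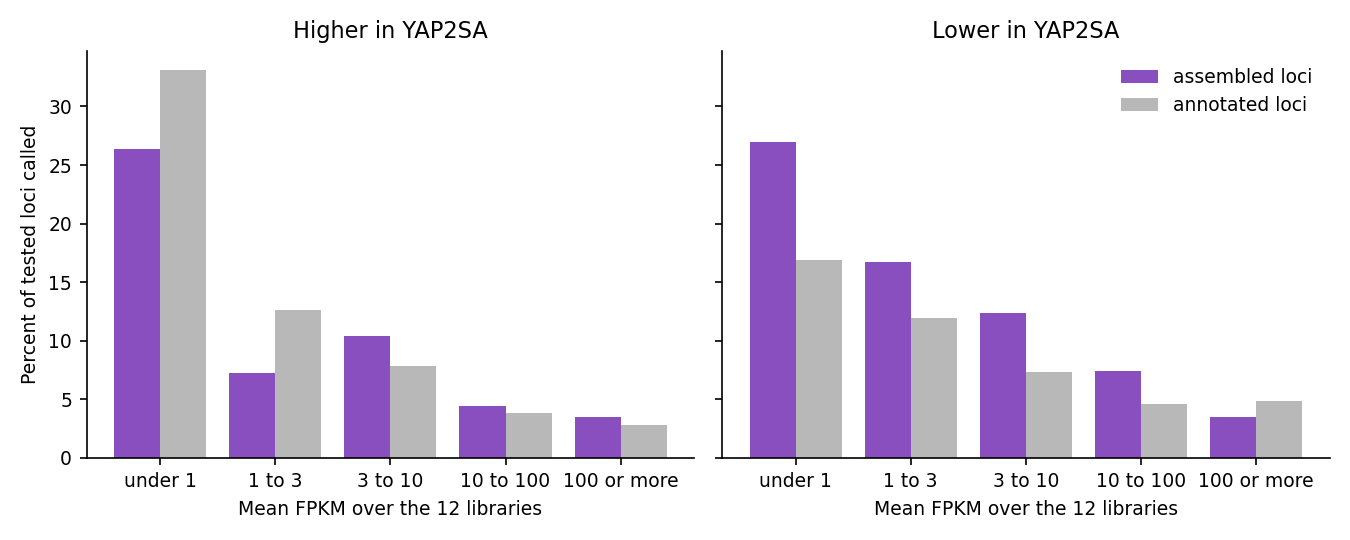
Percent of tested loci called in YAP2SA against Control (vertical axis) by class of mean FPKM over the 12 libraries (horizontal axis), for assembled (purple) and annotated (grey) loci. The left panel shows loci called higher and the right panel loci called lower. In the class of 1 to 3 FPKM the bars stand at 7.25% and 12.6% on the left and at 16.7% and 11.9% on the right.

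**Figure D3:**
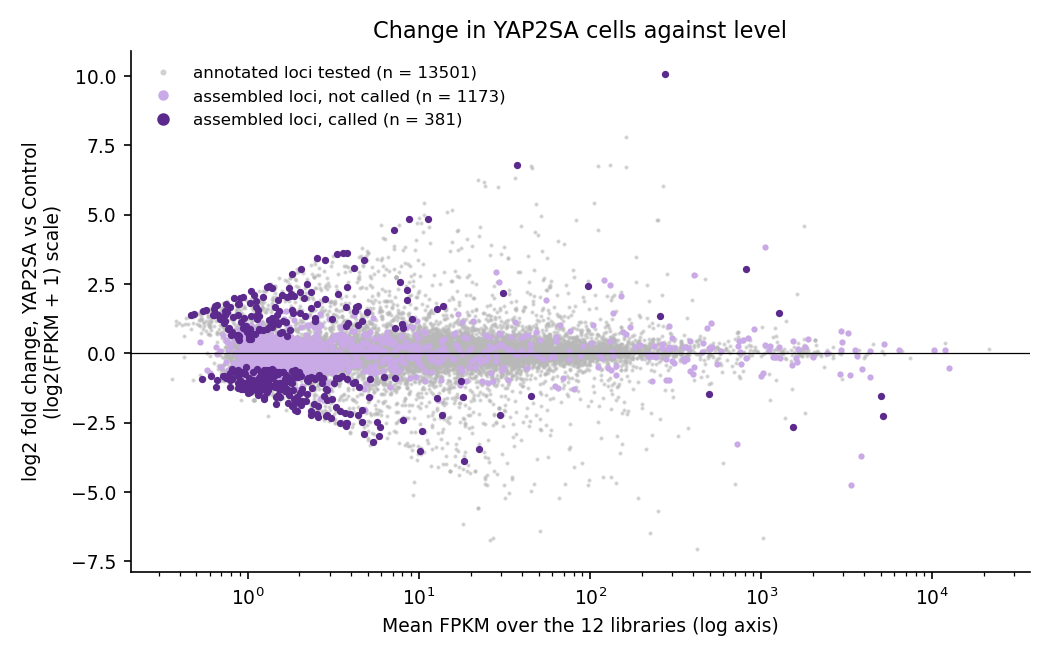
Log2 fold change of YAP2SA against Control on the log2(FPKM + 1) scale (vertical axis) against mean FPKM over the 12 libraries (horizontal log axis), for 13501 annotated loci (grey), 1173 uncalled assembled loci (light purple) and the called ones (dark purple). Most called assembled loci lie near 1 FPKM, and at high levels several assembled loci with wide changes were not called.

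Loci seen or missing in 1 group alone were counted over all 12 libraries. Above 0 in all 3 libraries of a group and listed at 0 in the other 9 were 2 assembled loci for YAP2SA and none for the other groups. Among all loci the share was 0.0918% for YAP2SA and 0.0095% for each other group, and annotated loci numbered 27 for YAP2SA and 3 for each other group. Listed at 0 in all 3 YAP2SA libraries and above 0 in the other 9 were 25 assembled loci, 1.56% of them, where the share over all loci was 0.212% and over annotated loci 0.14%. No assembled locus was off in this way in another group, where the shares over all loci were 0.0127% for Control, 0.0095% for YAPS127A and 0.0158% for YAPS127A,S94A. The 25 loci were mostly low, with a median of 1.7 FPKM in the other 9 libraries and a range of 0.872 to 7.14, and 20 of them lay under 3. Without regard to 0, all 3 YAP2SA libraries lay above the other 9 for 138 assembled loci, 8.6%, where 11.1% of all loci did so. They lay below the other 9 for 200, 12.5%, where 8.58% of all loci did so. The shares over all and annotated loci here include 8148 annotated loci listed at 0 throughout, which could meet none of these conditions. Those shares are therefore low beside the shares of assembled loci, none of which was at 0 throughout. Left out in turn, YAPS127A replicate 1 raised the number on only in YAP2SA to 4, and no other library took it above 3.

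CUFF.5271.1 was the highest of the loci on only in YAP2SA. It stood at 822.1, 995.0 and 1485 FPKM in the 3 YAP2SA libraries and was listed at 0 in the other 9. No fold is given against libraries listed at 0. This locus passed the filter only through YAP2SA and had to differ there, so no p-value is given. Its assembly number places it on chromosome 15 between PATL2 and LDHAL6B, from 44957930 to 59500787 in GRCh37. CUFF.11527.1, the other such locus, was far lower, at 3.51, 0.331 and 1.78 FPKM in YAP2SA.

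CUFF.9039.1, of chromosome 2 between HAAO and TACR1, was on in both groups with TEAD-binding YAP. It stood at 30.1, 41.7 and 33.4 FPKM in YAPS127A and at 74.2, 132.1 and 139.1 in YAP2SA, and was listed at 0 in all 3 Control and all 3 YAPS127A,S94A libraries. The groups did not overlap, and YAP2SA exceeded YAPS127A by 1.65 on the log2 scale (SE 0.20, limma with Benjamini-Hochberg adjusted p = 0.000123).

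CUFF.12762.1 lies on the minus strand of chromosome 5 between ARRDC3 and FAM172A, within 90664448 to 93447404. It was at 0.517, 0.587 and 0 FPKM in Control, 6.9, 3.53 and 6.47 in YAPS127A, 0, 0 and 0.184 in YAPS127A,S94A, and 12.8, 14.2 and 11.8 in YAP2SA. YAP2SA was highest, YAPS127A intermediate, and the other groups overlapped near 0. The log2 fold change against Control was 3.37 in YAP2SA (SE 0.23, adjusted p = 6.52e-07) and 2.27 in YAPS127A (SE 0.23, adjusted p = 0.000173) by limma with Benjamini-Hochberg adjustment.

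The largest fall in YAP2SA was that of the locus named CUFF.3387.1, CUFF.3387.2 and CUFF.3387.3, on the minus strand of chromosome 12 between PZP and DDX12P (9301436 to 9600825). It stood at 25.3, 26.1 and 27.2 FPKM in Control, 19.7, 18.7 and 16.9 in YAPS127A, 29.4, 24.6 and 29.4 in YAPS127A,S94A, and 0.856, 0.664 and 1.09 in YAP2SA. All 3 YAP2SA libraries were far below the rest, and YAPS127A lay just below Control without overlap. The log2 fold change was -3.87 in YAP2SA (SE 0.10, adjusted p = 6.71e-10) and -0.49 in YAPS127A (SE 0.10, adjusted p = 0.0146), the latter under the 2-fold threshold.

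CUFF.1336.1 of chromosome 1 also fell, from 6.09, 24.6 and 20.8 FPKM in Control to 0.685, 0.565 and 0 in YAP2SA. It was at 9.43, 8.09 and 8.42 in YAPS127A and at 15.9, 19.5 and 7.25 in YAPS127A,S94A, both overlapping Control. Its log2 fold change in YAP2SA was -3.52 (SE 0.47, limma with Benjamini-Hochberg adjusted p = 0.000136).

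CUFF.11885.1 and CUFF.10625.1 were the highest of the 25 loci off only in YAP2SA. CUFF.11885.1, on the minus strand of chromosome 4 between SEPSECS and SEL1L3 (25121636 to 25865382), was at 15.4, 3.51 and 9.65 FPKM in Control, 4.76, 1.76 and 8.8 in YAPS127A, and 6.74, 1.49 and 12.1 in YAPS127A,S94A. CUFF.10625.1, of chromosome 22 between TIMP3 and PICK1, was at 7.0, 5.96 and 6.56 FPKM in Control, 5.39, 1.99 and 5.98 in YAPS127A, and 3.81, 16.9 and 3.42 in YAPS127A,S94A. Both were listed at 0 in every YAP2SA library, and the other 3 groups overlapped. Their adjusted p against Control was 0.00243 and 0.000614 by limma with Benjamini-Hochberg adjustment. Both loci were picked for being at 0 in YAP2SA, so these values are no separate support.

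**Figure D4:**
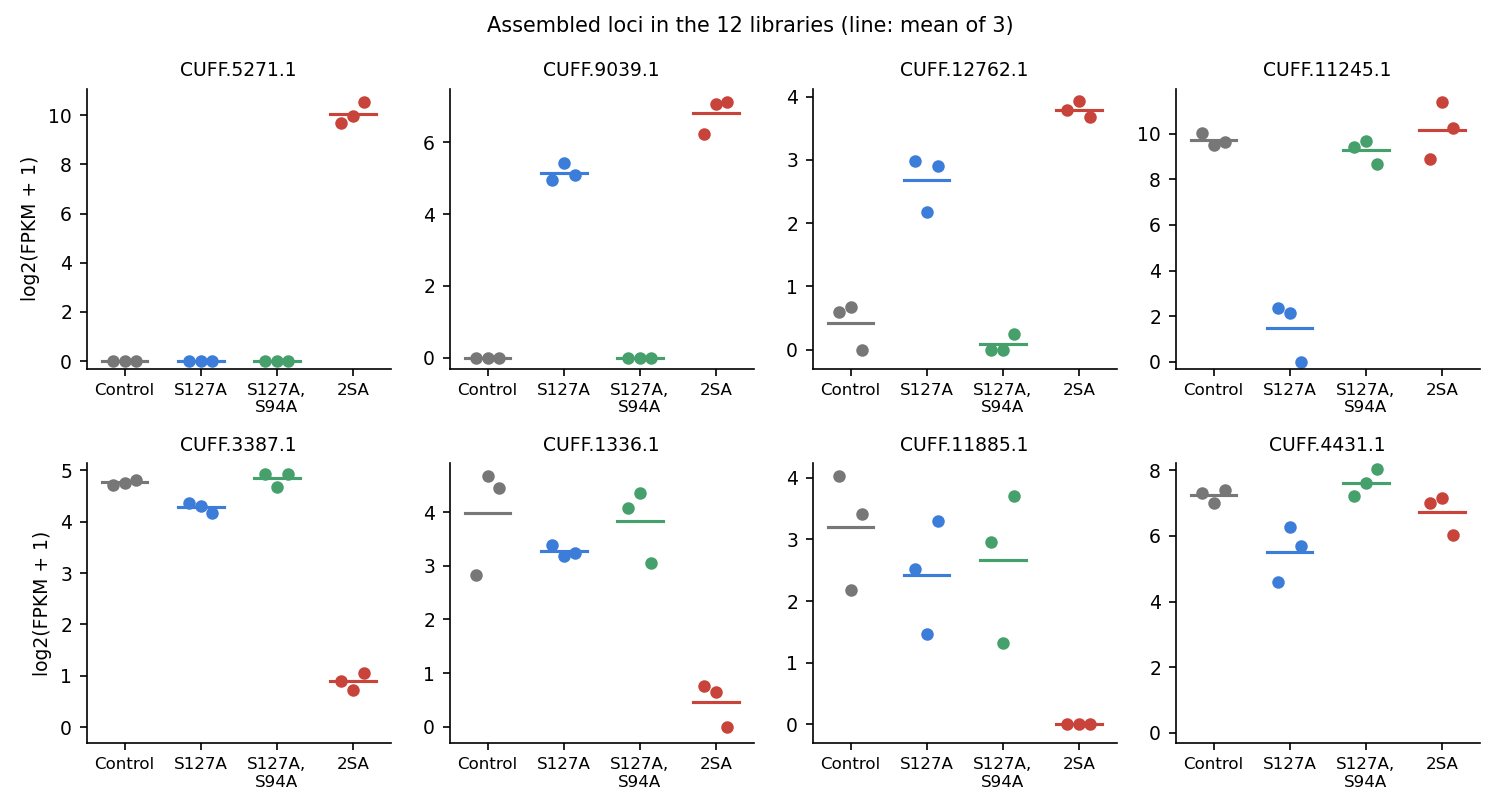
Log2(FPKM + 1) (vertical axes, different ranges) of 8 assembled loci in the 3 libraries (points) of each of the 4 groups (horizontal axes), with the mean of 3 as a line. CUFF.5271.1 is on only in YAP2SA, CUFF.9039.1 and CUFF.12762.1 are high in YAPS127A and YAP2SA, CUFF.11245.1 and CUFF.4431.1 are low in YAPS127A, and CUFF.3387.1, CUFF.1336.1 and CUFF.11885.1 are low in YAP2SA.

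Among the 31 assembled loci that also list a gene symbol, which were looked at after their values were seen, 3 rose and 4 fell in YAP2SA. The assembled locus that lists SLC16A3, a lactate exporter, was at 5.7, 9.18 and 7.85 FPKM in Control and at 22.6, 25 and 26.3 in YAP2SA, a log2 fold change of 1.60 (adjusted p = 0.0001, limma with Benjamini-Hochberg adjustment). The locus that lists DMRTA1, a transcription factor gene of the DMRT family, fell from 25.9, 33.3 and 40.8 FPKM to 1.58, 2.63 and 2.08, by 3.46 on the log2 scale (adjusted p = 6.6e-08). The locus that lists GRAMD1B, a protein of cholesterol transport between membranes, fell from 33.8, 42.5 and 41.3 FPKM to 6.07, 9.44 and 7.39, by 2.23 (adjusted p = 8.1e-06). None of the 3 overlapped between the groups. The other 4 called were those with FMN1 and TRIM17, which rose by 0.94 and 1.30 on the log2 scale, and with MIR135B and HP11097, which fell by 0.83 and 1.04. Among those not called, the locus with TM9SF2 stood at 65.9 to 83.2 FPKM in all 12 libraries. Only loci without any symbol gave 140 that rose and 234 that fell, a choice made after the data were seen.

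With S127A as the only change, the numbers were far smaller. In YAPS127A against Control, 20 assembled loci rose and 24 fell, 2.83% of those tested, where 2.47% of all loci and 2.43% of annotated loci were called. Of all loci 2.07% rose and 0.405% fell. The direction differed from annotated loci, of which 291 rose and 37 fell. Lower calls made up 54.5% of the called assembled loci and 11.3% of the called annotated loci. Without the library labelled Control replicate 3, 16 rose and 14 fell. In a fit of only these 6 libraries 12 rose. Without YAPS127A replicate 3, 23 rose and 17 fell, and with 0.1 in place of 1 added to the FPKM, 27 rose and 20 fell. The balance of higher and lower calls among assembled loci thus turned with the libraries and the pseudocount.

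CUFF.11245.1, of chromosome 3 between POU1F1 and ST3GAL6, had the largest fall in YAPS127A. It was at 1060, 721.6 and 794.1 FPKM in Control, 693.1, 818.7 and 414.0 in YAPS127A,S94A, and 477.0, 2696 and 1206 in YAP2SA, but at 4.07, 3.38 and 0 in YAPS127A. YAPS127A stood alone, below every library of the other groups, which overlapped one another. The log2 fold change was -8.24 against Control (SE 0.68, adjusted p = 4.47e-05) and -7.78 against YAPS127A,S94A (SE 0.68, adjusted p = 5.22e-05) by limma with Benjamini-Hochberg adjustment.

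CUFF.4431.1, of chromosome 13, showed a smaller fall in YAPS127A. It was at 155.8, 128.1 and 167.3 FPKM in Control, 23.2, 75.9 and 50.9 in YAPS127A, 146.3, 194.6 and 262.0 in YAPS127A,S94A, and 125.9, 141.5 and 63.5 in YAP2SA. YAPS127A lay below Control and YAPS127A,S94A and overlapped YAP2SA. The log2 fold change against Control was -1.71 (SE 0.41, limma with Benjamini-Hochberg adjusted p = 0.0356), and the call was lost without any 1 of Control replicates 1, 2 and 3, YAPS127A replicates 1 and 3, YAPS127A,S94A replicate 2 or YAP2SA replicate 1, with adjusted p from 0.0511 to 0.107. It was also lost without a filter on low values (adjusted p = 0.0596) and when the other 6 libraries were left out of the fit (adjusted p = 0.0984).

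CUFF.3371.1 rose in YAPS127A, from 2.37, 2.69 and 0 FPKM to 12.2, 10.8 and 8.11. It was at 5.17, 2.29 and 4.63 in YAPS127A,S94A and at 8.01, 27.7 and 9.01 in YAP2SA. The log2 fold change was 2.28 (SE 0.55, limma with Benjamini-Hochberg adjusted p = 0.0342). The call was lost without Control replicate 3, any 1 of the YAPS127A libraries or YAPS127A,S94A replicate 3, with adjusted p from 0.0523 to 0.102. It was also lost with 0.1 in place of 1 added to the FPKM, without a filter on low values and when the other 6 libraries were left out of the fit, with adjusted p from 0.0576 to 0.0912.

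The third comparison addressed YAP that cannot bind TEAD. In YAPS127A,S94A against Control no assembled locus was called by limma with Benjamini-Hochberg adjustment, and the lowest adjusted p was 0.0632. Of all loci tested 0.173% were called, with 12 annotated loci higher (0.0797% of all) and 14 lower (0.093%). At an unadjusted p under 0.05 there were 8.17% of assembled loci, against 3.96% of annotated loci. Leaving out Control replicate 1 gave 1 call higher, and leaving out Control replicate 2, the library labelled Control replicate 3 or YAPS127A replicate 2 gave 1 call lower.

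Between both forms that bind TEAD, YAP2SA and YAPS127A, 130 assembled loci were higher in YAP2SA and 171 lower. These were 19.4% of those tested, against 11.1% of all loci and 10.2% of annotated loci, of which 648 were higher and 723 lower. Of all loci 5.17% were higher and 5.94% lower. Without YAP2SA replicate 2 or 3 the number higher was 80 or 77. The largest falls here included CUFF.11581.1, of chromosome 3 between STAG1 and FBXO45. It was at 4.17, 10.8 and 10.8 FPKM in YAPS127A and at 0.296, 0 and 0 in YAP2SA, with 8.13, 7.69 and 1.69 in Control and 5.91, 5.23 and 13.2 in YAPS127A,S94A. YAP2SA lay below all other libraries, and the log2 fold change was -3.04 (SE 0.50, limma with Benjamini-Hochberg adjusted p = 0.000983).

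The fifth comparison set YAPS127A against the same protein with the TEAD contact removed. In YAPS127A, 33 assembled loci were higher and 51 lower, 5.41% of those tested, where 3.49% of all loci were called. Of all loci 2.54% were higher and 0.95% lower, and of annotated loci 349 were higher and 92 lower. Without YAPS127A replicate 1 the number of assembled loci higher was 21, and without any 1 of the YAPS127A,S94A libraries it was 17 to 19.

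This comparison shares no library with YAP2SA against Control, so the differences of both come from separate libraries. The calls of both are still not independent, because the filter and the spread of each locus came from the same limma fit of all libraries. Of the 33 assembled loci higher in YAPS127A, 30 (90.9%) were also among the 143 that rose in YAP2SA, which is 21.0% of the latter. Of the 51 lower in YAPS127A, 36 (70.6%) were among the 238 that fell, or 15.1% of those. A single locus was called in opposite directions. For annotated loci the shares were 92.6% and 32.3% for higher calls and 68.5% and 6.66% for lower calls. Of the 143 and 238 loci called in YAP2SA, 81.8% and 82.4% had a change of the same sign in YAPS127A against YAPS127A,S94A, where annotated loci gave 94.7% and 88.5%.

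Set side by side against the shared Control, the 143 loci that rose in YAP2SA had median log2 fold changes of 1.47 in YAP2SA, 0.35 in YAPS127A and 0.01 in YAPS127A,S94A. The 238 that fell had medians of -1.11, -0.31 and 0.03. Median FPKM over the group means of the loci that rose was 0.527 in Control, 0.883 in YAPS127A, 0.514 in YAPS127A,S94A and 3.52 in YAP2SA. For the loci that fell it was 2.09, 1.5, 2.13 and 0.368. In both sets the values of YAPS127A lay between those of Control and YAP2SA. The Control libraries enter all 3 differences, so these are not separate observations.

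The numbers in the names carry position. Locus numbers of the table run along each chromosome and strand, and of 17513 named loci with a GENCODE position whose neighbours lie on 1 chromosome and strand, 98.9% lie between those neighbours. By this order 268 assembled loci (16.7%) fall between named loci of 1 chromosome and strand, with a median interval of 746.9 kb. The other 1337 are numbered after both strands of a chromosome or elsewhere. The assembly numbers run along the genome without regard to strand, and both orders gave the same chromosome for 99.5% of 220 loci with both. A chromosome was assigned to 1312 assembled loci (81.7%) in this way. All positions given are such inferred intervals in GRCh37, not coordinates of the loci.

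The 268 loci between named ones were higher, with a median of the mean FPKM of 3.11 against 1.65 for the other 1337, and held 85 of the 89 loci with several names. They were also steadier, with a median standard deviation within groups of 0.278 against 0.388. In YAP2SA, 14.3% of those tested rose and 18.2% fell, against 8.18% and 14.7% of the others.

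Assembled loci with close numbers changed together in YAP2SA against Control, a pattern noticed after the values were seen and described without a test. Each pair of tested loci was counted from both of its loci, so the counts are of neighbours, not of separate loci or pairs. Of the neighbours 1 number away from a locus that rose, 42 of 76 (55.3%) also rose and 2 fell. Of those 1 number away from a locus that fell, 62 of 110 (56.4%) also fell and 2 rose. Next to a locus that was not called, 5.86% rose and 8.42% fell. The shares declined with distance: at 2 to 3 numbers 43.6% rose around a locus that rose and 43.2% fell around one that fell, at 4 to 10 numbers 21.1% and 28.5%, and at 11 to 30 numbers 6.75% and 19.2%. Over all assembled loci tested, 9.2% rose and 15.3% fell. Close numbers can be pieces of 1 transcript, so such neighbours are not independent. Loci that passed the filter only through YAP2SA are among those that rose.

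**Figure D5:**
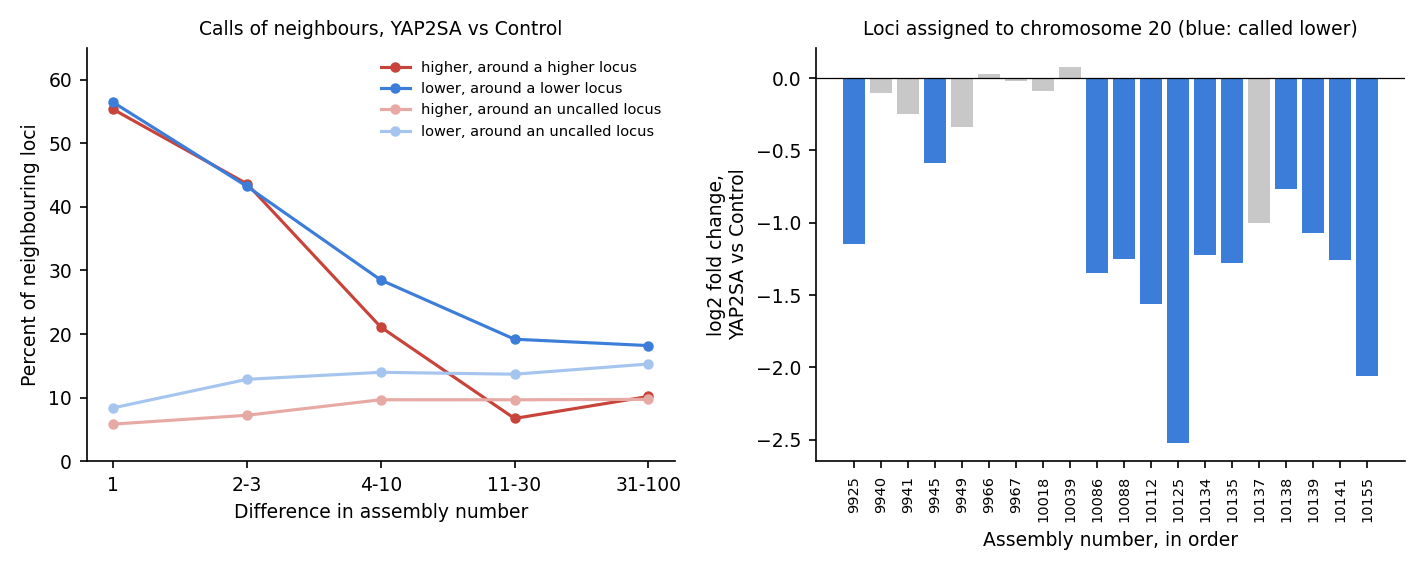
Left, percent of neighbouring assembled loci called higher or lower in YAP2SA against Control (vertical axis) by the difference in assembly number (horizontal axis), around loci that were called higher, lower or not called. Each pair is counted from both of its loci. Right, log2 fold change on the log2(FPKM + 1) scale of the 20 tested loci assigned to chromosome 20, in the order of their assembly numbers, with the 12 called lower in blue.

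Of 655 consecutive pairs at most 3 numbers apart, 35 pairs rose, 51 fell and 5 moved in opposite directions. There were 20 runs of at least 3 consecutive loci called in 1 direction, 9 runs higher with 31 loci and 11 lower with 38. The longest held 6 loci, numbered 921 to 927 and assigned to chromosome 1. In it the 3 YAP2SA libraries lay between 0 and 0.183 FPKM and the other 9 libraries between 0.444 and 3.81, without overlap. Log2 fold changes ranged from -1.79 to -1.03, with a highest adjusted p of 0.005 by limma with Benjamini-Hochberg adjustment.

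The longest run upward held 5 loci, numbered 1829 to 1834, of chromosome 10. Their values were 1.12 to 3.21 FPKM in YAP2SA, 0.101 to 1.28 in YAPS127A, 0 to 0.47 in YAPS127A,S94A and 0 to 0.6 in Control. YAP2SA overlapped YAPS127A across the 5 loci, but within each locus lay above all 3 Control libraries. CUFF.1829.1 and CUFF.1830.1 reached 1 FPKM only in YAP2SA and had to differ there. CUFF.12762.1 belonged to a run of 4 loci, numbered 12757 to 12762. CUFF.12761.1 in that run was at 11.9, 22.5 and 50.3 FPKM in YAP2SA, at 0.489 in the library labelled Control replicate 3, and listed at 0 in the other 8 libraries. The run rose by 1.37 to 4.45 on the log2 scale. CUFF.12757.1, CUFF.12758.1 and CUFF.12761.1 reached 1 FPKM only in YAP2SA and had to differ there, so no p-value is given for the run.

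Loci 15873 to 15879 lie on chromosome 9 near GNAQ, a G protein subunit, PSAT1, an enzyme of serine synthesis, and TLE4, a transcriptional corepressor. There 4 of 5 assembled loci rose. CUFF.15874.1, on the plus strand between these genes (80912041 to 82341797), was at 46.8, 22.1 and 29.6 FPKM in YAP2SA, 2.96, 1.09 and 0 in YAPS127A, 0, 2.51 and 0 in YAPS127A,S94A, and 0, 0 and 0.4 in Control. The locus CUFF.15878.2, with 2 further names, was at 11.1, 11.1 and 11.7 FPKM in YAP2SA, 1.92, 1.89 and 1.56 in YAPS127A and 0 to 0.14 in the other 6 libraries, with no overlap between YAP2SA, YAPS127A and the rest. CUFF.15876.1, between them in number, stood at 13.6 to 25.9 FPKM in all 12 libraries and was not called. PSAT1 and TLE4 themselves rose, from mean FPKM of 88.1 to 194.1 and of 24.2 to 52.0 (adjusted p = 5.1e-06 and 6.6e-08). GNAQ, the named neighbour of CUFF.15878.2 on the minus strand, went the other way, from 27.0 to 15.4 FPKM, a log2 fold change of -0.78 that stayed under the 2-fold threshold (adjusted p = 3.4e-05).

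The nearest named loci moved in the same direction more often than in the opposite one. Some assembled loci share a named neighbour, as CUFF.12757.1 and CUFF.12762.1 share FLJ42709, so they are not separate observations. Of 26 loci that rose and had a tested named locus next to them, 11 (42.3%) had one that rose and 2 had one that fell. Of 36 that fell, 13 (36.1%) had one that fell and 2 had one that rose. Of those not called, 12.6% had a neighbour that rose and 12.6% one that fell. CUFF.10112.1, which fell by 1.56 on the log2 scale, lies between KCNG1 and NFATC2, a transcription factor of calcium signalling. Mean FPKM of NFATC2 was 39.0 in Control and 0.98 in YAP2SA (limma with Benjamini-Hochberg adjusted p = 9.4e-11). KCNG1 was at 19.9 and 25.9 and was not called. CUFF.4735.1, with 1 further name, rose by 2.86 between DDHD1 and BMP4, a secreted growth factor. BMP4 was at 1.5 and 8.87 FPKM (adjusted p = 8.7e-06), and DDHD1 at 3.71 and 4.45, not called. The opposite was seen for CUFF.3461.1, with 2 further names, which fell by 2.26 between LINC00477, not tested, and BCAT1. BCAT1, an enzyme of branched-chain amino acid breakdown, was at 12.6 FPKM in Control and 27.6 in YAP2SA (adjusted p = 0.00015). These examples were chosen after their values were seen.

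Chromosome 20 held the densest falls of any chromosome with at least 20 assembled loci tested. Of its 20 tested assembled loci 12 fell and none rose, 60.0% called, where 24.5% of assembled loci and 15.5% of all loci were. The chromosome was picked after the values were seen. Its loci with close numbers can be pieces of 1 transcript, so the falls are not independent. Of the 302 annotated loci tested there, 8.61% fell and 6.95% rose, and their median log2 fold change was 0.02 against -1.04 for the assembled loci. Most falls lay among the later numbers of the chromosome, with 9 of the last 10 loci against 3 of the first 10. CUFF.10125.1 fell most, from a mean of 5.20 FPKM in Control to 0.0838 in YAP2SA, with 2.98 in YAPS127A and 6.78 in YAPS127A,S94A (log2 fold change -2.52, limma with Benjamini-Hochberg adjusted p = 6.5e-09). Elsewhere, 16 of 66 assembled loci assigned to chromosome 12 fell and 1 rose. On chromosome 4, 15 of 80 rose and 5 fell. Rises were denser on chromosome 8, where 14 of 56 rose and 9 fell, and on chromosome 18, where 5 of 22 rose and 3 fell. On chromosomes 12, 4, 8 and 18, 6.86%, 9.27%, 6.3% and 3.87% of annotated loci fell and 8.75%, 8.52%, 9.86% and 10.3% rose.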

How the data were processed

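Per the labels and methods, the authors aligned reads to hg19 (GRCh37) with the UCSC known genes and assembled transcripts. The submitters' processing notes name Bowtie2 2.0.0, TopHat2 2.0.4, Cufflinks 2.0.2 and bcl2fastq 2.15.0. The values deposited by the authors are log2(FPKM + 1) per locus for 12 libraries, without read counts, so depth is unknown and precision rests on the spread between 3 libraries per group. Identical entries (3 of 31588) were dropped.

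Values were fitted with limma 3.58.1 in R 4.3.3 with a mean for each group and a variance trend on intensity, over loci of at least 1 FPKM in at least 3 libraries, after the fit had been tested on simulated data. The 5 comparisons were each mutant against Control, YAP2SA against YAPS127A, and YAPS127A against YAPS127A,S94A. Adjustment was by Benjamini-Hochberg over all 15055 loci tested. Ratios of group means were computed on FPKM without a pseudocount. Loci were placed with GENCODE positions lifted to GRCh37. Figures used Python 3.11.15 and matplotlib 3.10.9.

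Named loci were, per comparison, the called loci with the 2 largest positive and 2 largest negative fold changes whose libraries do not overlap, the 2 highest on only and off only in a group, and the 2 highest means. Others were chosen after their values were seen. The rule for members, the marker list and the tests were chosen with earlier results of these data known. Alternatives were the pseudocount, filters, scalings, the libraries fitted, a replicate block, the trend, both thresholds, definitions of on and off, and each library left out.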

Additional observations from a re-analysis of the deposited data

How the results depend on the processing

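No called change of a named locus changed sign under the alternatives run. Of those not called in YAP2SA against Control, the log2 fold change of CUFF.11245.1 went from 0.45 to -0.16 without YAP2SA replicate 2, and that of CUFF.7558.1 from 0.12 to between -0.17 and -0.1 without Control replicate 2 or 3 or YAP2SA replicate 2. In YAPS127A against Control the balance of 20 loci higher and 24 lower turned to 27 and 20 with a pseudocount of 0.1, 16 and 14 without Control replicate 3 and 23 and 17 without YAPS127A replicate 3, and was even with no filter, at 18 and 18. In YAP2SA against Control, YAP2SA against YAPS127A and YAPS127A against YAPS127A,S94A, more assembled loci were lower than higher under every alternative. The larger share of assembled loci called in YAP2SA against Control did not hold without the 2-fold threshold. Then 28.8% of assembled and 43.9% of annotated loci were called. Under an adjusted p of 0.01 the assembled loci lower in YAP2SA against Control numbered 152, those higher and lower in YAPS127A against Control 12 and 12, those lower in YAP2SA against YAPS127A 95, and those higher and lower in YAPS127A against YAPS127A,S94A 12 and 27. A fit of only the 6 libraries compared gave 12 higher in YAPS127A against Control, and a minimum of 1 FPKM left 1 locus on only in YAP2SA. With each library left out in turn, the counts higher and lower were 91 to 145 and 197 to 240 in YAP2SA against Control, 14 to 23 and 14 to 27 in YAPS127A against Control, 0 to 1 and 0 to 1 in YAPS127A,S94A against Control, 77 to 126 and 129 to 173 in YAP2SA against YAPS127A, and 17 to 33 and 34 to 53 in YAPS127A against YAPS127A,S94A. Loci on only in YAP2SA then numbered 2 to 4, and loci expressed 1508 to 1550. Deviations of same-numbered libraries correlated with r = -0.149 to 0.163. Differently numbered libraries were not compared, so these values cannot show whether the numbers pair the libraries. With the replicate block 144 loci were higher and 239 lower in YAP2SA against Control. The scalings moved the median of all loci by under 0.1 on the log2 scale. Depth, and with it the number of reads behind a low FPKM, is unknown.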
